A study of Mus musculus with 106 samples.

Results

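The RUNX family of transcription factors was read here through 4 of 21853 annotated genes, Runx1, Runx2, Runx3 and Cbfb. They were chosen by name with earlier results of these data known, and were read with every promoter of their protein-coding transcripts. These came to 7 promoters out of 30935 in the genome: a distal (P1) and a proximal (P2) promoter for each Runx gene and a single promoter for Cbfb. Each was read in 70 peak lists from chromatin immunoprecipitation sequencing (ChIP-seq), 35 for H3K27ac, an acetylation found at active promoters and enhancers, and 35 for H3K4me3, a methylation found at promoters.

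All libraries came from wild-type C57BL/6J mice, aged 12 to 14 weeks when they were assigned to the control or diabetic group. Diabetic mice had been given streptozotocin, a toxin of the insulin-producing beta cells, at 42 to 45 mg/kg per day for 5 days. Their tissue was taken 6 weeks later, at a non-fasted blood glucose above 13.9 mmol/L. Control mice were not diabetic. From each, cells labelled hematopoietic stem cells (HSCs) were bone marrow depleted of CD3, CD4, B220, Ter119 and Gr1 positive cells, which enriches stem cells among other progenitors without sorting them. Bone marrow-derived macrophages (BMDMs) were grown for 7 days in 5 mmol/L glucose, whatever the glucose of the donor. They then spent 16 hours in medium only (unstimulated) or with lipopolysaccharide at 100 ng/mL and interferon-γ at 10 ng/mL (LPS+IFN-γ). Each mark had 6 libraries for control and 6 for diabetic HSCs, 6 and 5 for unstimulated BMDMs, and 6 and 6 for LPS+IFN-γ BMDMs. The 5 unstimulated diabetic libraries carried the replicate numbers 1, 2, 4, 5 and 6. The labels number the libraries without tying each to a mouse, so p-values measure the spread between libraries, which may be in part technical.

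RUNX1, RUNX2 and RUNX3 bind DNA through the Runt domain, and CBFB, which binds no DNA itself, pairs with each of them and strengthens that binding. RUNX1 is required for the first hematopoietic stem cells of the embryo and goes on acting in myeloid, lymphoid and megakaryocyte lineages. RUNX2 is best known as the master regulator of bone formation, and RUNX3 for its part in T cells and in resident macrophages and dendritic cells. Every Runx gene is transcribed from a distal promoter P1 and a proximal promoter P2, which give proteins with different first residues. In mouse blood the P1 transcript of Runx1 marks definitive stem and progenitor cells.

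The sequences of the 3 distal promoters are shown because they share a feature that was not found in the proximal promoters of Runx1 and Runx3. Each window runs from 250 bases before to 50 bases after the RefSeq start, on the gene's strand, in build GRCm38.p6, as RefSeq gives it. Capitals mark ACCACA, the word bound by Runt domains, which reads TGTGGT on the other strand. Runx1 P1 lies at chr16:92826025-92826324 on the minus strand, Runx2 P1 at chr17:44814578-44814877 on the minus strand, and Runx3 P1 at chr4:135120395-135120694 on the plus strand. The proximal promoter Runx1 P2, at chr16:92697280-92697579 on the minus strand, stands beside them for contrast.
Runx1 P1: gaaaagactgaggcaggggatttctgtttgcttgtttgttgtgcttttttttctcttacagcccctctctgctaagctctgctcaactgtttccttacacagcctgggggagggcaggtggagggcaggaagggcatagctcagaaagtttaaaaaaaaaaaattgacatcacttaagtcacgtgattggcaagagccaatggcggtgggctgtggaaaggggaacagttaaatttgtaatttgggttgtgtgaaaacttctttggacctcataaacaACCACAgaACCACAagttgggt
Runx2 P1: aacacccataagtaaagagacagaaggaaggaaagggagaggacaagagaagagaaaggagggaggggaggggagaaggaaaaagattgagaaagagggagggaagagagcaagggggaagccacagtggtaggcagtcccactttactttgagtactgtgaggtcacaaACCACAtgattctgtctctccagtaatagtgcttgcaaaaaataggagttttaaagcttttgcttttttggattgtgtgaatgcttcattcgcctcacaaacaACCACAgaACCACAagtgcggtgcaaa
Runx3 P1: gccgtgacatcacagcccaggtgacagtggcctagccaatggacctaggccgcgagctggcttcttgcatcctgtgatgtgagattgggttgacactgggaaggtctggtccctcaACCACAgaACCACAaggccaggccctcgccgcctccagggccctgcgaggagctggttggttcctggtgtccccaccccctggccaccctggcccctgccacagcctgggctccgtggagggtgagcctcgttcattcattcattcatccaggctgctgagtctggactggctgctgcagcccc
Runx1 P2: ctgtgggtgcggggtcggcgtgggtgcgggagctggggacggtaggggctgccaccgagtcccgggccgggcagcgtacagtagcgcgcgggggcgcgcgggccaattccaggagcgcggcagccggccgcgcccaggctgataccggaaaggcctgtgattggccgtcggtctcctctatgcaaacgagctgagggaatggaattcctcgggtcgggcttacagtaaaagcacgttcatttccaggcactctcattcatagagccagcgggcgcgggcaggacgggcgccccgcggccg

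All 3 distal promoters held the word as a direct pair with 2 bases between, ACCACAGAACCACA. Counted from the RefSeq start, the paired words began at +29 and +37 in Runx1, at +24 and +32 in Runx2, and at -134 and -126 in Runx3. Runx2 P1 held a further copy at -80. Of 32851 RefSeq promoters of the same length, 4 (0.0122%) held this pair on either strand. The fourth was that of Gm16225, whose window overlaps that of Runx3 P1, so the pair was found at no gene outside the Runx loci. With any 2 bases between the words (ACCACANNACCACA), 7 promoters (0.0213%) matched. A single TGTGGT on either strand was common, in 16.8% of promoters, and was not found in the windows of Runx1 P2, Runx3 P2 or Cbfb. The pair was noticed in these windows before it was counted in the rest. A match of letters is a description and not a bound site.

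The 2 kinds of promoter also differed in base composition. The distal windows of Runx1, Runx2 and Runx3 held 2, 2 and 8 CpG dinucleotides, against a median of 7 over all promoters (quartiles 3 and 20). The proximal windows of Runx1 and Runx3 held 35 and 45, and that of Cbfb 30. RefSeq's table had no entry for Runx2 P2.

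A peak's rank is its place in its own list when peaks are ordered by the −log10 p of the peak caller, so rank 1 is the strongest. A promoter takes the rank of its best peak. The fold is the enrichment over the input at a peak's summit. A promoter takes the highest fold of any peak in its window, which need not be the peak of best rank. The fold percentile is the promoter's place by fold among all 30935 promoters in the same library, with promoters lacking a peak tied at the bottom. The lists held from 13730 to 277213 peaks (median 110154), and the number of reads behind each is unknown here. The H3K4me3 lists were shorter in HSCs (13730 to 145750, median 59726.5) than in unstimulated BMDMs (66146 to 212718, median 131406). In a fit over all tested promoters, HSCs were above unstimulated BMDMs in H3K27ac at 4 of 8 stem and progenitor markers (Flt3, Gata2, Kit and Myb). They were lower at 3 of 7 macrophage markers (Cd14, Cd68 and Mertk). They were also higher at the erythroid markers Hemgn and Gata1 and at 2 of 6 neutrophil granule markers (Ctsg and Mpo), and at 0 of 4 B cell and 0 of 4 T cell markers. Over all promoters tested, 10.2% were higher and 10.1% lower in HSCs. All 5 erythroid markers had a peak in every HSC library, against a median of 2 in BMDMs. A more marked promoter and a larger share of cells that mark it cannot be told apart in any result below.

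Of the control BMDM libraries, 3 went against their H3K27ac labels. This was read from 26 regions held after LPS+IFN-γ and 27 held without it in diabetic BMDMs. The library labelled unstimulated control 5 held 18 of the 26 and 5 of the 27, and that labelled unstimulated control 6 held 17 and 1. The library labelled LPS+IFN-γ control 5 held 5 and 25. Every library kept its label here, and each test was also run without these 3.

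Over the 7 promoters and 70 lists, 397 of 490 promoter readings had a peak. Which promoters carried a peak, its rank and the length covered were read because these genes were selected by them in an earlier reading of these data, so they are described with no test. Cbfb and Runx1 P2 had a peak of both marks in all libraries, and so did Runx2 P2. Runx3 P2 had one in 69 of 70 lists, the exception being the H3K4me3 list of diabetic HSC 6, the shortest of all. The distal promoters were more selective, as the plot of ranks by promoter shows.

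**Figure D1:**
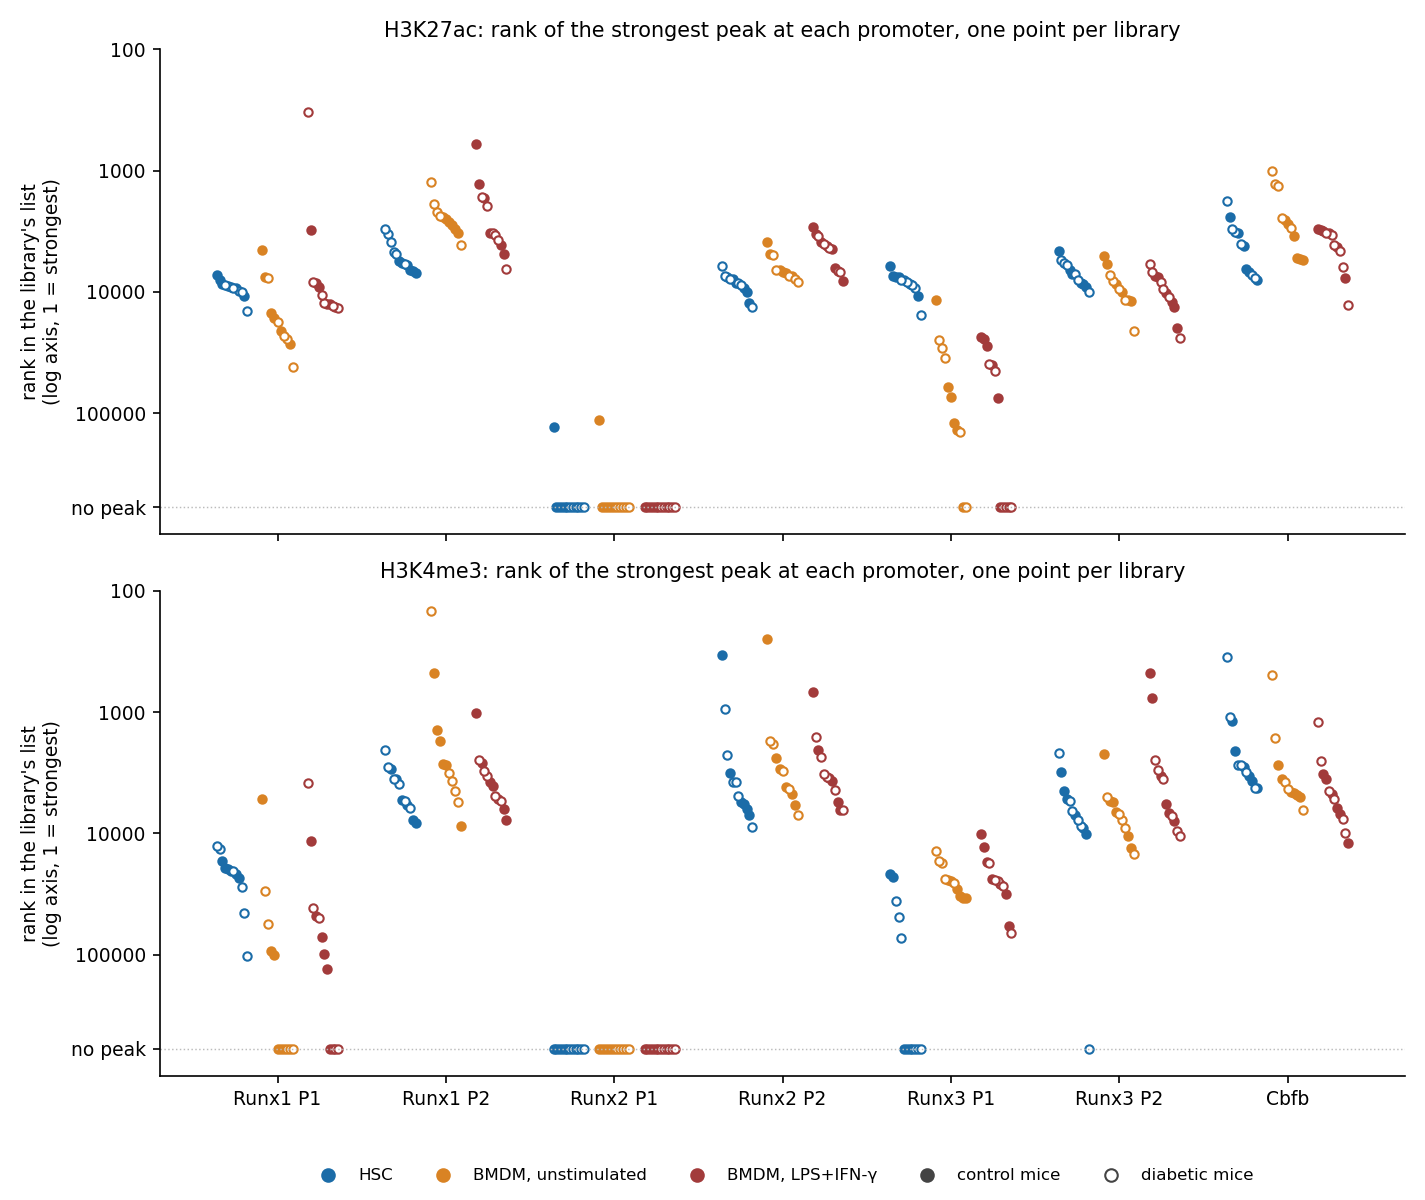
Rank of the best peak at each promoter of the Runx genes and Cbfb in every library (log axis, strongest at the top), by mark (panels) and cell state (colours), filled for control and open for diabetic mice; points are sorted within each cell state, and libraries with no peak stand on a line of their own at the bottom. Runx3 P1 held peaks of rank 6183 to 15594 in all 12 H3K27ac lists of HSCs and of rank 11786 or worse in BMDMs, whereas Runx1 P2 stayed within rank 6973 in all 35.

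Runx1 P1, the distal promoter whose transcript marks definitive stem and progenitor cells, spans start sites at 92825778 and 92826149 of chromosome 16, at the 5′ end of the gene. In HSCs its H3K27ac rank ran from 7209 to 14358 (median 9257.5) and peaks covered 1942 to 2372 bp of the 2372 bp window (median 2215.5). In unstimulated BMDMs every library still had a peak there, at ranks of 4484 to 41843 (median 17675), covering 347 to 1958 bp (median 701). After LPS+IFN-γ the ranks were 332 to 13698 (median 11510.5) and the covered length 386 to 2271 bp (median 866.5). Peaks thus covered at least 81.9% of the window in every HSC library, against medians of 29.6% in unstimulated and 36.5% in LPS+IFN-γ BMDMs. The widest single peak had a median of 1450.5 bp in HSCs (1000 to 2859) and 620 bp in unstimulated BMDMs (347 to 2134). After LPS+IFN-γ it was 855.5 bp (386 to 4169), and these ranges overlap.

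A rank within 10000 was reached by 9 of 12 HSC, 3 of 11 unstimulated and 5 of 12 LPS+IFN-γ libraries, and all 12 LPS+IFN-γ libraries lay within the HSC range or above it. The best ranks in BMDMs were those of control unstimulated 1 (rank 4484) and 3 (rank 7607), diabetic unstimulated 4 (rank 7718), control LPS+IFN-γ 3 (rank 3072) and diabetic LPS+IFN-γ 3 (rank 332, fold 12.6). Of these, control unstimulated 1 and diabetic LPS+IFN-γ 3 also stood out in H3K4me3, at ranks 5226 and 3814. In H3K4me3 the Runx1 P1 window had a peak in 12 of 12 HSC libraries (rank 12826 to 102898, median 20379), in 5 of 11 unstimulated and in 8 of 12 LPS+IFN-γ libraries. The H3K4me3 lists were shorter in HSCs, and the part of list length was not tested.

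Runx1 P2, the proximal promoter, spans start sites from 92695495 to 92697328 and had the best median H3K27ac rank of the Runx promoters in each cell state. Its H3K27ac rank was 3015 to 6973 in HSCs (median 5675), 1253 to 4079 in unstimulated BMDMs (median 2511) and 607 to 6494 after LPS+IFN-γ (median 3266.5). In H3K4me3 the medians were 4646.5, 2727 and 3911. The H3K4me3 peak at Runx1 P2 was wider in BMDMs, with a median width of 1250 bp in HSCs (741 to 2520) against 2406 bp (1338 to 3042) in unstimulated BMDMs and 2593 bp after LPS+IFN-γ. The HSC and unstimulated ranges overlap. At Runx2 P2 the same width barely moved, at 2945, 2844 and 2925 bp, and at Cbfb it was 1297, 1273 and 1477.5 bp.

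Runx2 P1, the distal promoter used in bone cells, had a peak in 2 of 70 lists, at rank 129919 in an HSC library and 114624 in an unstimulated BMDM library, both of H3K27ac. No H3K4me3 list held a peak there. Its window holds the same ACCACA pair as Runx1 P1 and Runx3 P1. Runx2 P2 was marked in every list, at H3K27ac ranks of 2916 to 13406 and H3K4me3 ranks of 248 to 8843. The gene best known from bone was thus marked at its proximal promoter alone, in HSCs and BMDMs.

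Runx3 P1, which starts at 135120652 of chromosome 4, had the widest gap in median H3K27ac rank between HSCs and unstimulated BMDMs of the member promoters with a peak in most lists. All 12 HSC libraries had a peak, at ranks of 6183 to 15594 (median 8192.5) with a fold of 4.19 to 12.3 (median 7.77). In unstimulated BMDMs 9 of 11 had one, at ranks of 11786 to 143013 (median 60694) and a fold of at most 6.36 (median 3.58). After LPS+IFN-γ 7 of 12 had one, at ranks of 23765 to 74569. A peak among the 10000 strongest of its list was found there in 10 of 12 HSC libraries and in no BMDM library.

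H3K4me3 at Runx3 P1 had the other order. A peak was present in 5 of 12 HSC libraries (rank 21771 to 73131), in 11 of 11 unstimulated BMDM libraries (rank 14065 to 34449, median 24938) and in 12 of 12 after LPS+IFN-γ (rank 10035 to 66801). Shorter H3K4me3 lists moved with this order. Among the 6 HSC libraries whose list was at least as long as the shortest unstimulated one (66146 peaks), 4 had a peak. Over these 6 libraries the fold percentile had a median of 47.3. Its range overlapped that of unstimulated BMDMs (49.6 to 80.5). The part of list length was not tested. Runx3 P2, with its coding start site at 135152496, had H3K27ac ranks of 4589 to 10013 in HSCs, 5102 to 20883 in unstimulated and 5931 to 24127 in LPS+IFN-γ BMDMs.

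Cbfb, the shared partner subunit, has its start sites between 105170674 and 105170945 of chromosome 8. It ranked from 1011 to 12909 in H3K27ac and from 354 to 11994 in H3K4me3. The median H3K27ac ranks in HSCs, unstimulated and LPS+IFN-γ BMDMs were 4145.5, 2781 and 3747, with ranges that overlapped.

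To ask whether HSCs and unstimulated BMDMs differed beyond the spread of libraries, the folds were compared in place of the ranks. In each library the folds of all promoters were turned into normal scores, so that 0 is the middle promoter and 1 is a step of 1 SD, and limma was fitted to every promoter with a peak in at least 3 libraries. The fold comes from the same peak lists as the rank, so this is not an independent assay. Of the 7 member promoters 6 passed that filter, and Runx2 P1 did not in either mark. An adjusted p (Benjamini-Hochberg, over all promoters tested) under 0.05 was taken as a call. In H3K27ac, 4435 of 21843 promoters (20.3%) were called between HSCs and unstimulated BMDMs, 10.2% higher and 10.1% lower in HSCs. Among the 6 members tested, 1 was higher and 1 lower.

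Runx3 P1 was the higher one, by 0.73 ± 0.16 (SE; limma adjusted p = 0.000957). Runx1 P2 was lower in HSCs, by −0.56 ± 0.13 (adjusted p = 0.00211), at fold percentiles of 70.0 to 91.5 (median 79.4) against 82.7 to 98.2 (median 91.4) in unstimulated BMDMs. Those ranges overlap. The other 4 were not called by limma: Runx1 P1 differed by 0.19 ± 0.23 (adjusted p = 0.612), Runx2 P2 by −0.24 ± 0.11 (adjusted p = 0.118), Runx3 P2 by 0.07 ± 0.14 (adjusted p = 0.776) and Cbfb by −0.28 ± 0.14 (adjusted p = 0.145). Without the 3 libraries that went against their labels, the differences called were 0.66 at Runx3 P1 (limma adjusted p = 0.0055) and −0.62 at Runx1 P2 (adjusted p = 0.00172). With diabetic mice only, they were 0.64 (adjusted p = 0.0887) and −0.30 (adjusted p = 0.375), and neither was called.

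In H3K4me3, 1386 of 21934 promoters (6.32%) were called, 2.28% higher and 4.04% lower in HSCs. Of the 6 members tested 1 passed, Runx3 P1, which was at −0.75 ± 0.17, the opposite sign to its H3K27ac. Promoters with no peak are tied lowest, and 7 of 12 HSC lists but no unstimulated list lacked a peak there. This value therefore largely restates which lists held a peak, which the choice of genes used, and it is a description with no test. Without the 3 libraries in doubt 579 promoters were called and Runx3 P1 was at −0.74, and with control mice only (−0.57) or diabetic mice only (−0.93) it did not pass. Runx1 P1, which lacked a peak in 6 of 11 unstimulated lists, was at 0.64 ± 0.25 and did not pass, but at 0.83 without control unstimulated BMDM 1, the library with the outlying Runx1 P1 peak, it did. Cbfb, with a peak in every list, differed by 0.46 ± 0.16 (limma adjusted p = 0.0801). Runx1 P2 (−0.49 ± 0.22), Runx2 P2 (0.21 ± 0.21) and Runx3 P2 (0.04 ± 0.21) were not called.

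**Figure D2:**
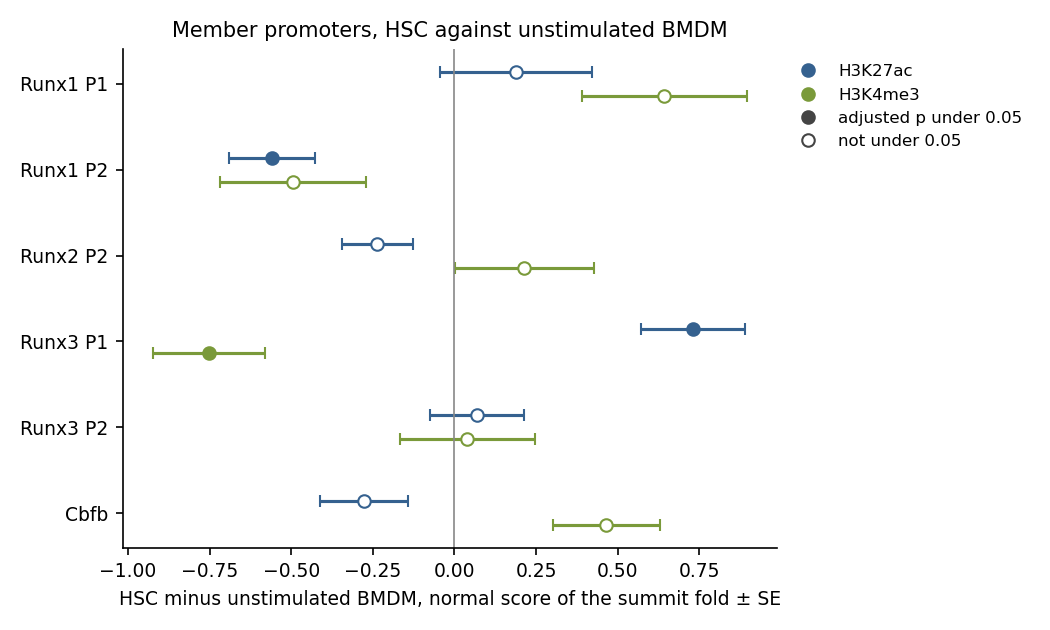
Difference in normal score (units of 1 SD over all promoters) with its SE, from limma, between HSCs and unstimulated BMDMs at the 6 member promoters tested, in blue for H3K27ac and green for H3K4me3, filled where the adjusted p is under 0.05. The called differences in H3K27ac are Runx3 P1 (0.73) and Runx1 P2 (−0.56). Runx3 P1 in H3K4me3 (−0.75) is also filled, but it largely restates which lists held a peak and is a description with no test.

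Because P1 and P2 sit in the same library, their difference in normal score, P1 minus P2, gives a balance read within each library. In H3K27ac the Runx1 balance was −0.17 ± 0.42 (SD, n = 12) in HSCs and −0.91 ± 0.62 (SD, n = 11) in unstimulated BMDMs. It was 0.74 nearer to P1 in HSCs (two-sided permutation test, p = 0.00057). For Runx3 it was −0.02 ± 0.29 against −0.69 ± 0.44, a difference of 0.67 (permutation p = 0.00032). In both genes P2 thus had less of a lead over P1 in HSCs than in macrophages, averaged over control and diabetic mice. With diabetic mice only the differences were 0.54 for Runx1 and 0.47 for Runx3, and neither passed once adjusted over the 6 tests made. For Runx2 the balance says little, since P1 had almost no peaks and was tied lowest in nearly every list.

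In H3K4me3 the balance is given as a description, since Runx1 P1 or Runx3 P1 lacked a peak in many lists. That of Runx1 was −0.70 ± 0.45 (SD, n = 12) in HSCs against −1.81 ± 1.07 (SD, n = 11) in unstimulated BMDMs, a difference of 1.12. That of Runx3 went the opposite way, −1.11 ± 0.68 against −0.34 ± 0.47, a difference of −0.77. When limma was fitted to all pairs of promoters of the same gene, 1133 of 6578 pairs (17.2%) were called in H3K27ac and 324 of 6297 (5.15%) in H3K4me3. Adjusted over all pairs, Runx3 was called in H3K27ac (0.66 ± 0.17, limma adjusted p = 0.00531) and Runx1 was not (0.75 ± 0.28, adjusted p = 0.0551). That fit was added after the data had been seen.

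**Figure D3:**
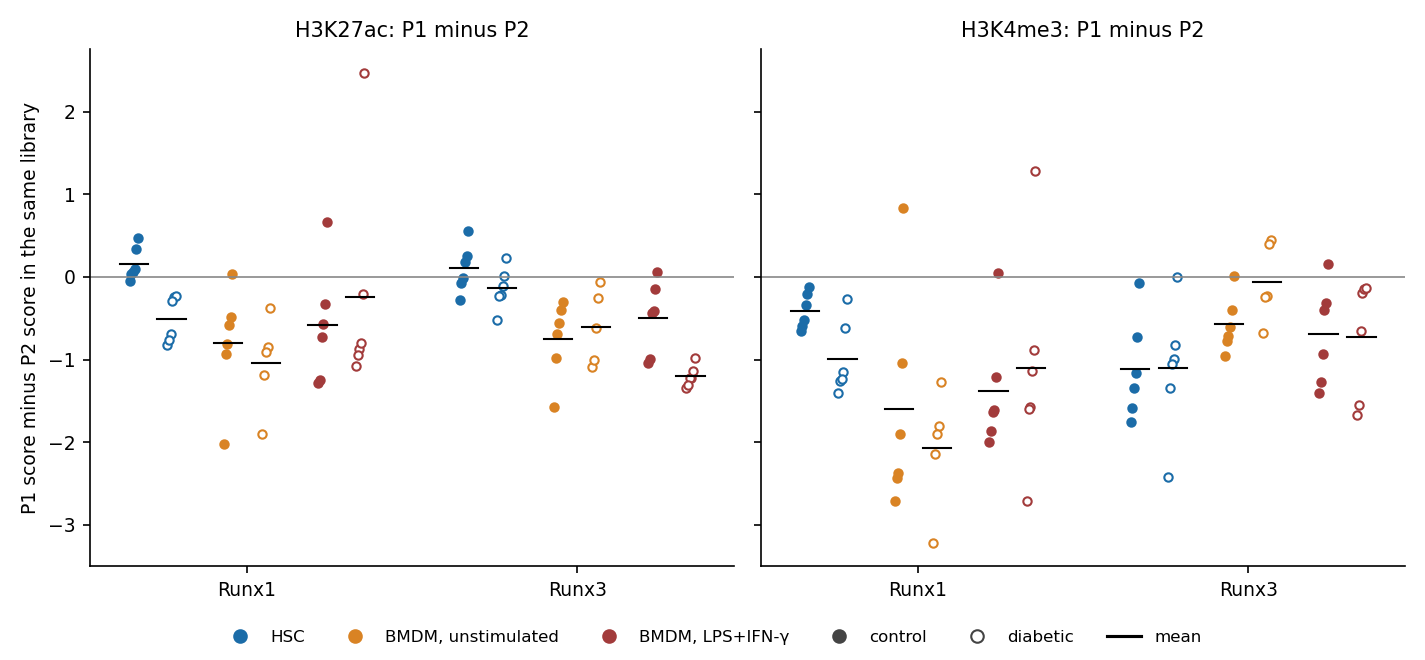
Balance between distal and proximal promoter (normal score of P1 minus that of P2; 0 means equal, negative means P2 is stronger) for Runx1 and Runx3 in every library, by mark (panels) and cell state (colours), filled for control and open for diabetic mice; points are sorted within each group and bars are means. In H3K27ac of HSCs the 6 control libraries lie between −0.04 and 0.47 for Runx1 and the 6 diabetic libraries between −0.83 and −0.23.

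Between diabetic and control mice, no member was called in any cell state or mark. In H3K27ac 1 of 21843 promoters was called in HSCs (0.00458%), 0 (0%) in unstimulated and 0 in LPS+IFN-γ BMDMs. In H3K4me3 the counts were 0 in HSCs, 0 in unstimulated BMDMs and 1 of 21934 (0.00456%) after LPS+IFN-γ. At an unadjusted p under 0.05 limma gave 805, 1094 and 1087 promoters in H3K27ac and 1049, 1152 and 1002 in H3K4me3. Over the 36 member tests the difference ran from −0.45 to 0.52 with SEs of 0.15 to 0.37, and the smallest adjusted p was 0.924. In data simulated for the HSC contrast, a step of 1 SD was called at 34 of 50 promoters in H3K27ac and 31 of 50 in H3K4me3. A step of 0.5 SD was called at 5 and 0 of 50. The BMDM contrasts and the ties of promoters without a peak were not simulated.

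An unadjusted p under 0.05 was found at 3 members, all in H3K27ac. Runx1 P2 in HSCs had fold percentiles of 70.0 to 80.6 (median 74.8) in control and 78.2 to 91.5 (median 86.6) in diabetic mice, a difference of 0.44 ± 0.18 (limma unadjusted p = 0.0211). Cbfb in unstimulated BMDMs had 73.6 to 88.1 (median 81.0) in control and 86.2 to 96.2 (median 92.0) in diabetic mice, a difference of 0.52 ± 0.20 (limma unadjusted p = 0.0122). Runx3 P1 after LPS+IFN-γ had a peak in 5 of 6 control and 2 of 6 diabetic libraries, with a difference of −0.45 ± 0.22 (limma unadjusted p = 0.0493) that largely restates this. The groups overlapped at each of these promoters, and none held after adjustment.

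The balance of Runx1 in HSCs was the value that separated diabetic from control libraries. In H3K27ac it ran from −0.04 to 0.47 in the 6 control libraries (0.16 ± 0.20, SD) and from −0.83 to −0.23 in the 6 diabetic ones (−0.50 ± 0.28, SD), with no overlap. Diabetic HSCs thus read nearer to P2, by −0.66 (two-sided exact permutation test, p = 0.00216, the smallest that 6 against 6 can give). It is 1 of 18 such tests, chosen after the data had been seen. Over 899 pairs of promoters that both had a peak in every HSC list, 2 (0.222%) separated the groups in this way. That share is close to the probability of 0.00216 with which random labels separate 6 from 6 libraries. In limma over all 6578 pairs, the Runx1 difference was −0.66 ± 0.38 (adjusted p = 1.00), 0 pairs (0%) were called and 221 had an unadjusted p under 0.05.

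List length moved with this result: the control HSC lists held 100045 to 139452 peaks and the diabetic ones 51162 to 130995. The diabetic libraries with 51162, 68588 and 91389 peaks had a balance of −0.76, −0.83 and −0.69. Those with 93958, 127456 and 130995 peaks had −0.23, −0.24 and −0.29. The lowest control library, at −0.04, had the shortest control list (100045 peaks). The part of list length was not tested. In H3K4me3 the Runx1 balance in HSCs was −0.41 ± 0.22 (SD, n = 6) in control and −0.99 ± 0.44 (SD, n = 6) in diabetic mice, with overlapping ranges. Its exact permutation p was 0.0238, and 0.143 once adjusted over the 18 tests. In limma over all pairs this difference was −0.58 ± 0.48 (unadjusted p = 0.233) and was not called. Runx3 after LPS+IFN-γ had an H3K27ac balance of −0.49 ± 0.45 (SD, n = 6) in control and −1.20 ± 0.13 (SD, n = 6) in diabetic mice, where 4 of 6 libraries had no P1 peak, and over all pairs its limma adjusted p was 0.554. In H3K27ac 0 pairs were called between diabetic and control mice in unstimulated or LPS+IFN-γ BMDMs (351 and 355 at an unadjusted p under 0.05), and in H3K4me3 0 in any state (237, 348 and 331).

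LPS+IFN-γ, the stimulus that drives macrophages to an inflammatory state, called 73 of 21843 promoters in H3K27ac (0.334%) and 0 of 21934 in H3K4me3 (0%; 1153 at an unadjusted p under 0.05 in limma). No member was among them. Runx2 P2 in H3K27ac differed by 0.23 ± 0.11 (limma unadjusted p = 0.0375, adjusted p = 0.386) and Runx3 P2 in H3K4me3 by 0.55 ± 0.21 (unadjusted p = 0.012, adjusted p = 0.89). These comparisons hold the 3 libraries in doubt, and without them 223 promoters were called in H3K27ac and 1 in H3K4me3, with no member among them. Whether the diabetic difference itself differed between cell states was tested with interaction terms, which called 0 promoters in both marks for HSCs against unstimulated BMDMs (786 and 1070 at an unadjusted p under 0.05) and for LPS+IFN-γ against unstimulated BMDMs (1251 and 1171). The member with the smallest p was Cbfb, whose H3K27ac difference was 0.75 smaller after LPS+IFN-γ (−0.75 ± 0.27, limma unadjusted p = 0.00891, adjusted p = 0.855).

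Beyond the promoters, the share of each gene body with 20 kb on either side covered by peaks was divided by the share of the genome covered in the same library. The loci are Runx1 at chr16:92601466-92826149 (minus strand), Runx2 at chr17:44495987-44814797 (minus strand), Runx3 at chr4:135120652-135177990 (plus strand) and Cbfb at chr8:105170674-105217989 (plus strand), given without the flanks. Runx3 was the most densely marked. In H3K27ac its enrichment was 9.04 to 19.9 (median 17.2) in HSCs, 5.67 to 10.5 (median 8.57) in unstimulated and 4.90 to 11.1 (median 8.79) in LPS+IFN-γ BMDMs, and 11 of 12 HSC libraries lay above all 23 BMDM libraries, so the ranges overlap. In H3K4me3 it was 0 to 6.93 (median 5.47) in HSCs, below every BMDM library (6.99 to 11.3 unstimulated and 7.28 to 13.2 stimulated). The value of 0 was diabetic HSC 6, the shortest list. Summed over the locus the 2 marks thus had opposite orders. Of 21126 loci with an H3K4me3 peak in at least 3 of these libraries, 122 (0.577%) had all HSC libraries below all unstimulated ones, and 39 (0.185%) the reverse. The H3K4me3 lists were also shorter in HSCs, whose part was not tested.

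Runx2 was sparsely marked but had more H3K27ac in HSCs, at 2.17 to 3.25 times the genome (median 2.74) against 1.29 to 2.11 (median 1.55) in unstimulated BMDMs, with no overlap. Of 20116 loci, 744 (3.7%) had all HSC libraries above all unstimulated ones in H3K27ac, and 566 (2.81%) the reverse. After LPS+IFN-γ it was 1.20 to 2.89 (median 2.08), which overlaps both. Runx1 was covered 6.09 to 8.73 times the genome (median 7.45) in HSCs, 5.30 to 10.5 (median 6.04) in unstimulated and 6.22 to 12.4 (median 8.32) in LPS+IFN-γ BMDMs, ranges that overlapped. Cbfb had medians of 2.25, 2.21 and 2.42.

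**Figure D4:**
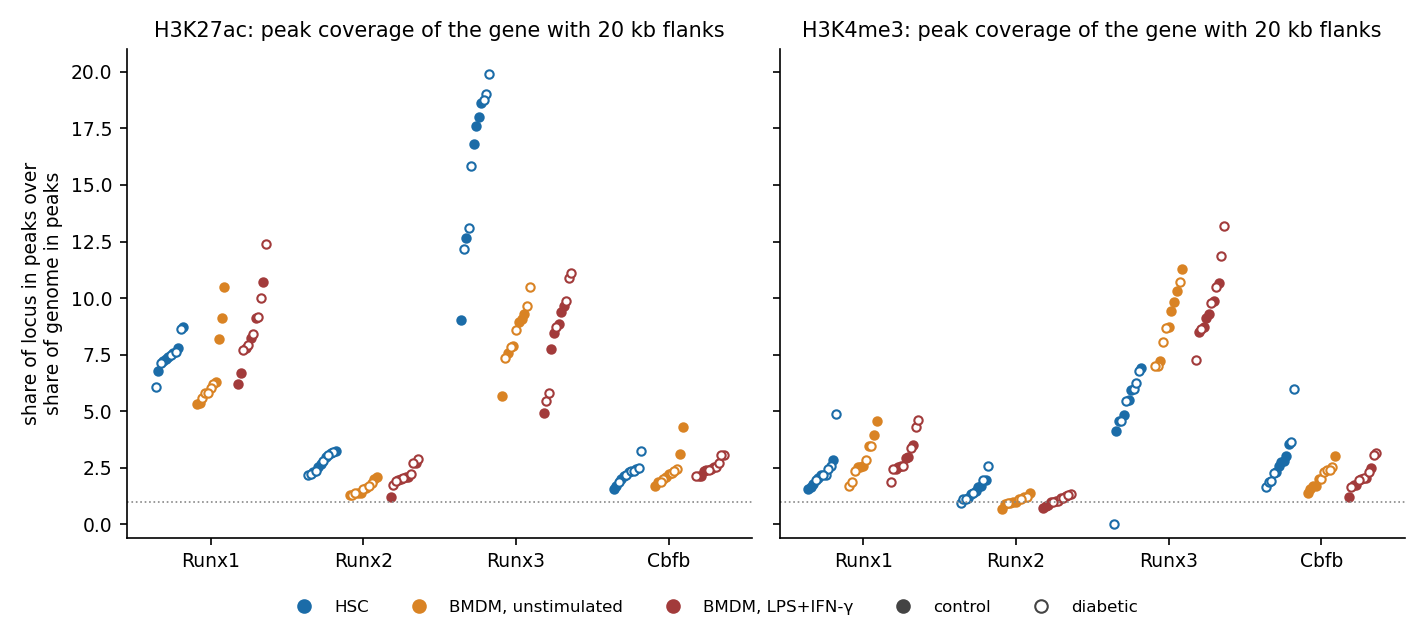
Share of each gene body with 20 kb flanks covered by peaks, divided by the share of the genome covered in the same library (1 means as the genome), for Runx1, Runx2, Runx3 and Cbfb in every library, by mark (panels) and cell state (colours), filled for control and open for diabetic mice, with points sorted within each cell state and a dotted line at 1. Runx3 in HSCs lies at 9.04 to 19.9 in H3K27ac and at 0 to 6.93 in H3K4me3.

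Where in each gene the strong H3K27ac peaks lay was read by merging the 10000 strongest peaks of the 35 lists into regions held by at least 2 libraries. There were 9 in the Runx1 locus, 2 at Runx2, 6 at Runx3 and 2 at Cbfb, of 16420 in the genome. Over the genome 42 regions (0.256%) were held by all HSC and no unstimulated BMDM libraries, 73 (0.445%) the other way round, and 3789 by all 35 libraries. None of the 19 member regions was in the first or second class.

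In Runx1 the region over P2 (chr16:92696538-92700168) was held by all 35 libraries. The region just downstream of it, chr16:92694435-92696126, was held by 0 of 12 HSC, 10 of 11 unstimulated and 9 of 12 LPS+IFN-γ libraries. These counts take only the strongest peaks of each list. An H3K27ac peak of any rank was present around the start site at 92695495 in all 12 HSC libraries. The matching H3K4me3 region, chr16:92694565-92696080, was held by 7 of 12 HSC, 9 of 11 unstimulated and 11 of 12 LPS+IFN-γ libraries. Whether the P2 mark extended further into the gene in macrophages was not tested. A further 5 H3K27ac regions lay in the 3′ part of the gene, the last centred 219.7 kb downstream of the first start site. They were held by 0 HSC libraries and by 0 to 4 of 11 unstimulated and 2 to 7 of 12 LPS+IFN-γ libraries. At the 5′ end the order turned. The region over P1 was held by 10, 6 and 5 libraries of HSCs, unstimulated and LPS+IFN-γ BMDMs, and that 24.6 kb downstream of it by 6, 0 and 2.

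That last region is intronic and lies in the interval 22 to 26 kb below the P1 start, where the known hematopoietic enhancer of Runx1 is found. Read over the whole interval (chr16:92800149-92804149), H3K27ac peaks were present in 12 of 12 HSC libraries at ranks of 7563 to 15191 (median 10179) and covered 622 to 3378 bp (median 1721). In unstimulated BMDMs 10 of 11 libraries had a peak, at ranks of 11170 to 80585 (median 20977), covering 0 to 1127 bp (median 688). After LPS+IFN-γ all 12 had one, at ranks of 9573 to 52412, covering 362 to 1326 bp. The covered length was above the highest unstimulated library in 10 of 12 HSC libraries. Its summit lay at a median of 24.6 kb in HSCs and in both kinds of BMDM. H3K4me3 peaks there were few in HSCs, 2 of 12, against 7 of 11 and 9 of 12.

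The intronic element's 300 bases around the summit (chr16:92801350-92801649) held no TGTGGT on either strand. That word was found in 17.6% of 4067 windows of the same length at HSC H3K27ac peaks over 1 kb from a start site. Most such windows thus lack it too, and the rest of the interval was not searched.

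In Runx3 the region over P1 was held by 10 of 12 HSC and 0 of 23 BMDM libraries, and a further one 20.0 kb downstream by 3 HSC libraries and no BMDM library. The region over P2 was held by 11, 6 and 6 libraries. Beyond it 3 regions, at 40.0, 59.5 and 73.5 kb, were held by 0 HSC and by 1 to 2 unstimulated and 1 to 5 LPS+IFN-γ libraries. The regions at 59.5 and 73.5 kb are centred beyond the end of the 57.3 kb gene. In both Runx1 and Runx3 the region over P1 was held by a larger share of HSC than of BMDM libraries. The regions beyond P2 were held by BMDM libraries only, some of them by few. Whether the 2 genes share a layout was not tested. At Runx2 the regions were P2 (10, 11 and 12 libraries) and one at 37.5 kb, over the promoter of the neighbouring gene Supt3, which was held by all 35. At Cbfb they were its own promoter and that of D230025D16Rik.

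**Figure D5:**
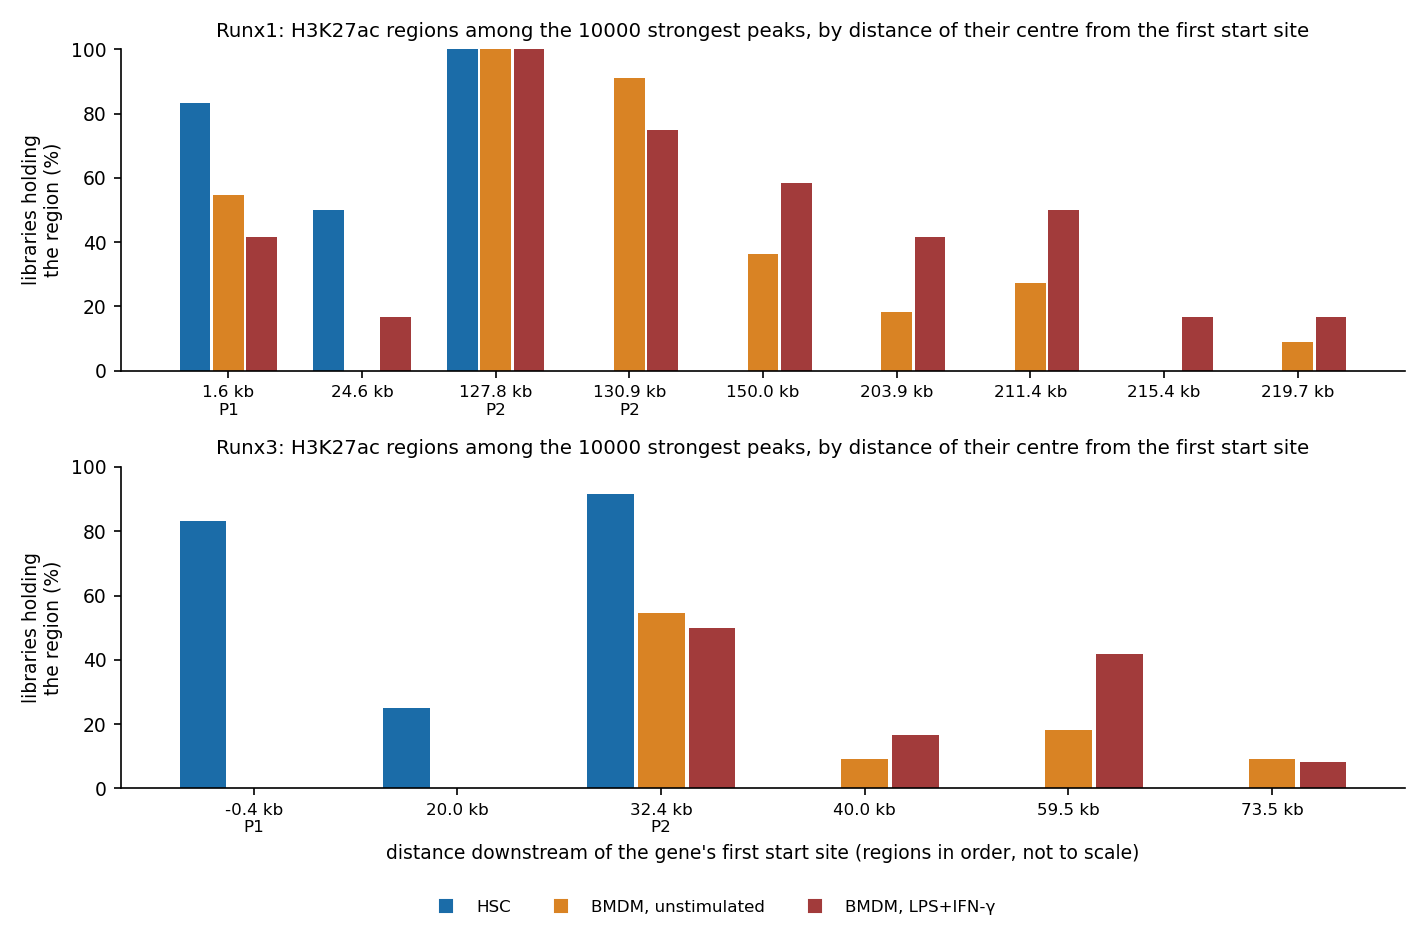
Percentage of libraries of each cell state that held each H3K27ac region (the 10000 strongest peaks of each list, merged) along Runx1 and Runx3, with regions in order and not to scale, each named by the distance of its centre from the first start site in kb; bars are HSCs, unstimulated and LPS+IFN-γ BMDMs. Regions at P1 and 24.6 kb (Runx1) or 20.0 kb (Runx3) below it are held by a larger percentage of HSC than of BMDM libraries. At Runx3 P1 this is 10 of 12 against none. The regions beyond Runx3 P2 and beyond both regions at Runx1 P2 are held by BMDM libraries only.

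The genes that work with RUNX factors were read in the same limma fit, each by its most strongly marked promoter. Of 24 partners and cofactors, 1 was higher in HSCs than in unstimulated BMDMs in H3K27ac, 2 were lower and 21 were not called, against 20.3% called over all promoters (median difference 0.08, against −0.01 over all promoters). The higher one was Kat6a (0.63 ± 0.12, limma adjusted p = 0.000148), an acetyltransferase that binds RUNX1. The lower ones were Elf4 (−0.68 ± 0.20, adjusted p = 0.013), an ETS factor, and Smad3 (−0.48 ± 0.14, adjusted p = 0.0146), which carries TGF-β signals. In H3K4me3 0 of the 24 were called by limma, with 3 at an unadjusted p under 0.05, against 6.32% called over all promoters.

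Of 8 stem cell factors that bind DNA together with RUNX1, Myb (0.49 ± 0.10, limma adjusted p = 0.000549) and Gata2 (0.42 ± 0.12, adjusted p = 0.011) were higher in HSCs in H3K27ac. Fli1, an ETS factor, was lower (−0.60 ± 0.17, adjusted p = 0.012), and was also lower in H3K4me3 (−0.51 ± 0.15, adjusted p = 0.0403). Over all promoters tested, 10.2% were higher and 10.1% lower in H3K27ac, and 2.28% and 4.04% in H3K4me3. Of 20 known RUNX1 target genes in blood, 7 were higher and 4 lower in H3K27ac (median 0.16), against 10.2% and 10.1% of all promoters tested. Among the higher ones were Mpo, Itga2b, Gfi1b, Nfe2, Kit and Gfi1, led by Mpo (0.93 ± 0.12, adjusted p = 3.84e-07), which encodes myeloperoxidase of granulocyte progenitors, and Itga2b (0.91 ± 0.15), the megakaryocyte integrin CD41. The lower ones were Cebpa (−0.94 ± 0.17, adjusted p = 0.000109) and Spi1 (−0.92 ± 0.26, adjusted p = 0.0101), the myeloid factors C/EBPα and PU.1, with Zbtb7b and Hhex. The erythroid markers Hemgn and Gata1 and the neutrophil granule markers Ctsg and Mpo were also higher in HSCs, and the part of such cells was not tested. In H3K4me3 Csf2 (−0.59 ± 0.18, adjusted p = 0.0397) was the only target called, against 6.32% of all promoters tested. Between diabetic and control mice, with LPS+IFN-γ and in the interactions, 0 genes of these 3 lists were called by limma, with 0 to 3 per list at an unadjusted p under 0.05.

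Promoters whose H3K27ac rank moved most like those of Runx1 were found by Spearman correlation over the 35 libraries, which share cell states and list lengths, so this is a description. For Runx1 P1 they were P2ry14 (0.76), Fermt3 (0.74), Babam1 (0.71), Tmem173 (0.70) and Glmp (0.68). For Runx1 P2 they were Gm15155 (0.82), Igf1 (0.79), Rnf217 (0.78), Emp2 (0.77) and Ccdc148 (0.77). The 2 sets had no gene in common, and the 2 promoters of Runx1 correlated with each other at −0.53.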

How the data were processed

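ChIP-seq of H3K27ac and H3K4me3 gave 70 peak lists; 36 input libraries had no list of their own. The submitters' processing notes name Trim Galore 0.3.3, cutadapt 1.8, FastQC 0.11.3, Bowtie2 2.2.6, Picard (2.18.14 and 2.19.2), bedtools 2.19.1, MACS2 2.2.7.1 and GRCm38 (mm10), without parameters. Peak names show that the authors called peaks per library against its own input, without pooling. The deposited columns used hold the fold (a ratio over the input at the summit) and the −log10 p of each peak; the deposited −log10 q ends near 1.3 in every list, and was used for a stricter threshold. Read depth is not given in the sources used here.

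Promoters were GENCODE M21 start sites with 1000 bp either side, merged when start sites of a gene lay within 2000 bp. Folds became normal scores within each library, absent peaks tied lowest. limma 3.58.1 (R 4.3.3) fitted all 35 libraries of a mark by group, over promoters with a peak in at least 3 libraries, and was tested on simulated data. The balance of P1 and P2 used two-sided permutation tests (100000 resamples, or exact with 6 against 6), called at a p under 0.05 adjusted over the 6 planned tests. P1 and P2 were told apart by the first residues of the translated proteins. Genes named were the members, their lists, and the 5 promoters of highest correlation with each Runx1 promoter. Single values of some genes of these lists are not reported here. Members and lists were chosen with earlier results of these data known. Alternatives changed the ranking column, window, threshold, filter, scale, block and libraries.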

Additional observations from a re-analysis of the deposited data

Results flagged for a closer look

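In 9 of 72 groups of 5 or 6 libraries (12.5%) a single library's fold percentile lay far from the others of its group, where chance flags about 1 in 20. At Runx1 P1 these were diabetic unstimulated BMDM 4 in H3K27ac (84.6, nearest other 59.9), control unstimulated BMDM 1 in H3K4me3 (94.4, nearest 41.2) and diabetic LPS+IFN-γ BMDM 3 in H3K4me3 (96.1, nearest 45.0). The last library was also low at Runx1 P2 in H3K27ac (79.3, nearest 89.8). Runx2 P2 stood at 99.9 in H3K4me3 of control HSC 5 (nearest 82.6), and Cbfb at 74.5 in H3K27ac of control LPS+IFN-γ BMDM 1 (nearest 86.9). Runx3 P1 had no peak in H3K27ac of control LPS+IFN-γ BMDM 3, which placed it at 27.1 (nearest 52.4), and stood at 87.2 in H3K4me3 of diabetic LPS+IFN-γ BMDM 2 (nearest 66.6). Runx3 P2 had no peak in H3K4me3 of diabetic HSC 6, the shortest list, and stood at 35.4 (nearest 77.3).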

How the results depend on the processing

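Between HSCs and unstimulated BMDMs, the 2 members called in H3K27ac became 0 with diabetic mice only and 4 with −log10 p in place of the fold (Cbfb and Runx2 P2 added, on the column whose ranks the choice of genes used, so that these calls support nothing), and were 2 to 2 when each library was left out. The 1 member that passed in H3K4me3, Runx3 P1, is a description, as stated above. That count became 0 with control mice only, 0 with diabetic mice only, 2 with −log10 p and 2 with percentiles (Runx1 P1 added). It was 3 with no filter on promoters, where Cbfb and Runx2 P1, which has no H3K4me3 peak in any list, were added. Leaving out each library gave 1 to 2, the 2 without control unstimulated BMDM 1. The cause of these changes was not tested, beyond the smaller samples.

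The balance lost its call as follows, with p adjusted over the 6 tests. With diabetic mice only it was 0.54 for Runx1 (adjusted p = 0.0823), 0.14 for Runx2 (0.385) and 0.47 for Runx3 (0.0974) in H3K27ac, and −1.05 for Runx3 in H3K4me3 (0.0779). With control mice only, H3K4me3 gave 1.20 for Runx1 (0.0812) and −0.53 for Runx3 (0.112). The H3K4me3 balances remain a description, as stated above. Runx2 P1 had almost no peaks, so its balance follows P2. With percentiles Runx2 in H3K27ac was 6.97 percentile points (0.0560). Adjusted over all pairs in limma, Runx1 in H3K27ac was 0.75 (0.0551) and Runx3 in H3K4me3 −0.79 (0.0589). Leaving out each library gave 0.63 to 0.83, 0.18 to 0.28 and 0.58 to 0.73 in H3K27ac for Runx1, Runx2 and Runx3, and 0.98 to 1.38, −0.14 to 0.08 and −0.87 to −0.65 in H3K4me3. No result with a call changed direction. For the counts of members called and the balance, 162 settings kept the call or the count, 9 lost a call and 7 moved a count; for single promoters 212 kept their side, 5 gained a call and 5 lost one.

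Replicate numbers are shared across groups. Same-numbered libraries correlated above 0.1 in 6 of 34 pairs in H3K27ac and 5 of 34 in H3K4me3 (medians 0.007 and 0.023). Pairs with different numbers had medians of −0.001 and −0.005. Libraries that correlated best with their own number were 11 of 35 and 13 of 35. Whether a shared number means a shared mouse cannot be told from these values. With the replicate block the counts were 2 and 1, and the balance 0.78, 0.28 and 0.68 in H3K27ac and 1.17, −0.11 and −0.77 in H3K4me3, with no call changed.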
